A study of Mus musculus with 17 samples.

Results

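Chemokines and their receptors were examined as a gene family in cultured mouse bone marrow macrophages (BMMs) and in the preosteoclasts (preOCs) made from them, with and without deletion of Bap1, which encodes a deubiquitinase. A gene belonged to the family when its symbol was a numbered Ccl, Cxcl, Xcl, Cx3cl, Ccr, Cxcr, Xcr, Cx3cr or Ackr name, with at most 1 letter after the number. This rule took 60 of the 41388 genes in the count tables: 38 ligands (23 CC, 13 CXC and 2 others) and 22 receptors, of which 18 signal conventionally and 4 are atypical. RNA sequencing was done on 17 libraries. BMMs kept in M-CSF alone comprised 3 Bap1flox and 3 Bap1LysM libraries. Cells given M-CSF and 100 ng/ml RANKL for 24 h, named osteoclasts in the labels and preOCs in the study, comprised 6 Bap1flox libraries (replicates 1 to 6) and 5 Bap1LysM libraries (replicates 1, 2, 4, 5 and 6). The cells came from 20-week-old male mice. Both genotypes carried loxP sites in both copies of Bap1. Bap1LysM mice also carried a Cre gene placed in Lyz2, the lysozyme gene of myeloid cells, in 1 copy by the study's methods, and Bap1flox mice were Cre-negative littermates. The Lyz2 promoter drives the Cre throughout the myeloid lineage and not in preosteoclasts alone. The labels number the libraries without tying a number to an animal or culture, so the p-values measure the spread between these libraries, which may be partly technical.

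Chemokines are small secreted proteins that direct the migration of leukocytes by binding G protein-coupled receptors. Inflammatory ligands such as CCL2 call monocytes through CCR2, homeostatic ligands such as CXCL12 hold cells in the marrow through CXCR4, and atypical receptors bind ligands without G protein signalling. In bone, monocytes and osteoclast precursors carry several of these receptors, and osteoclasts themselves secrete ligands, among them CCL9 (MIP-1γ), which acts on CCR1.

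The libraries held between 37967542 and 61369441 counts, so a level of 1 CPM, the usual scaling of counts to library size, stood for 37.9 to 62.4 counts, and a count of 3, taken as the lower limit of detection, for 0.048 to 0.079 CPM. The labels could be checked only in part. Whole-gene Bap1 counts do not separate the deleted exons, and Bap1 lay between 58.7 and 88.0 CPM in all 17 libraries. Lyz2, which the Cre insertion disrupts, was at 0.148% to 0.485% of the Bap1flox mean in 6 Bap1LysM libraries. It stood at 45.7% in the library labelled Bap1LysM BMM 1 and at 80.6% in the library labelled Bap1LysM preOC 1. A single inserted copy leaves the other copy of Lyz2 intact, and the near absence of Lyz2 in the 6 libraries goes against it. The Lyz2 levels of the 8 libraries thus go against one another or against the stated genotype, and which of these holds was not tested. Several values below that rest on the library labelled Bap1LysM BMM 1 or preOC 1 are also given without it. The fits with a replicate block and those within replicates 1 to 3 were not repeated without them. The library names take one form for replicates 1 to 3 and another for replicates 4 to 6, and the preOC comparison is also given within these sets. All 10 preosteoclast markers exceeded 1 CPM in the preOCs, where their summed level was 6057 to 16360 CPM against 240.4 to 385.6 CPM in the BMMs. None of 6 T and NK cell markers reached 1 CPM in any library. In bulk RNA of this kind, fewer cells of a type and less RNA per cell cannot be told apart.

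Of the 60 family members, 32 exceeded 1 CPM in at least 1 library, namely 21 of 38 ligands and 11 of 22 receptors. Another 25 were counted but never exceeded 1 CPM, and 3 ligands (Ccl1, Ccl21a and Ccl21b) had no count in any library, which allows at most 0.048 to 0.079 CPM in each. The ligands too low to measure by this line included the neutrophil attractants Cxcl1 (at most 0.52 CPM) and Cxcl5 (0.17 CPM) and the interferon-induced Cxcl9 (0.84 CPM). They also included the B cell attractant Cxcl13, which peaked at 0.76 CPM in Bap1LysM preOC 5, the lymphoid ligand Ccl19 (0.034 CPM), the CCR4 ligand Ccl17 (0.12 CPM), and the mucosal ligands Ccl20 (0.049 CPM) and Ccl28 (0.42 CPM). Ccl11, Ccl26, Ccl27b, Cxcl15, Cxcl17 and Xcl1 peaked between 0.020 and 0.080 CPM. Among receptors, the lymphocyte receptors Ccr4 (0.24 CPM), Ccr6 (0.17 CPM), Ccr8 (0.089 CPM), Ccr9 (0.65 CPM), Cxcr5 (0.52 CPM) and Cxcr6 (0.19 CPM) stayed under the line. So did Cxcr1 (0.13 CPM), the cross-presenting dendritic cell receptor Xcr1 (0.91 CPM) and the scavengers Ackr1 (0.59 CPM), Ackr2 (0.15 CPM) and Ackr3 (0.28 CPM). With the filter used, which asks for over 1 CPM, none of these genes was tested. Without a filter Cxcl13 passed between the preOC genotypes, at no more than 0.043 CPM in Bap1flox and at 0.079 to 0.76 CPM in Bap1LysM preOCs. Cxcl11, Ccr10 and Ackr4 exceeded 1 CPM in too few libraries to enter the tests with this filter, so 29 members were tested in at least 1 comparison.

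**Figure D1:**
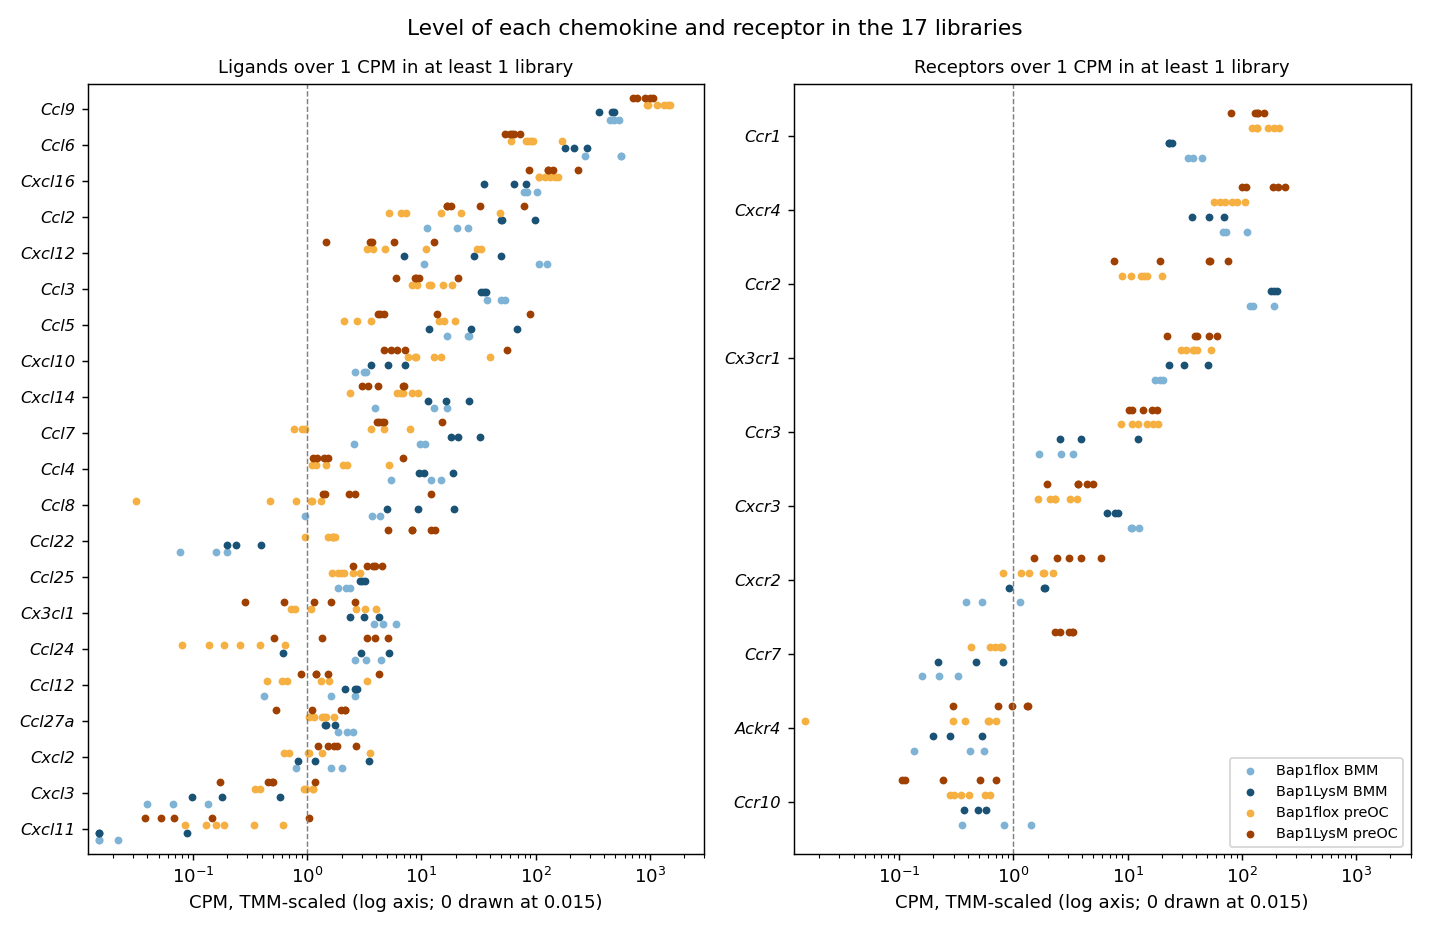
Level of 31 of the 32 family members over 1 CPM, in CPM on a log axis, with 1 dot for each of the 17 libraries coloured by group, ligands and receptors in separate panels, a value of 0 drawn at the left edge and a dashed line at 1 CPM. Ccl9 and Ccl6 lead the ligands and Ccr2, Cxcr4 and Ccr1 the receptors drawn, while several members lie below 1 CPM in most libraries.

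Levels of different genes were compared per length, as CPM divided by the exonic length in kilobases (RPKM), given as mean ± SD. Of the ligands, 2 CC chemokines of the CCR1 group led in most groups. Ccl6 was the highest ligand of Bap1flox BMMs at 260 ± 93.7 RPKM (SD, n = 3), followed by Ccl9 at 161 ± 14.9 RPKM, and these did not differ beyond their spread. In Bap1LysM BMMs Ccl9 was at 143 ± 22.4 RPKM and Ccl6 at 126 ± 28.0 RPKM (SD, n = 3), again within their spread. In preOCs Ccl9 stood alone, at 401 ± 77.7 RPKM in Bap1flox (SD, n = 6) and 292 ± 49.7 RPKM in Bap1LysM cells (SD, n = 5). The next ligands there were Ccl6 at 54.2 RPKM and Cxcl16, the membrane-bound ligand of CXCR6, at 42.7 RPKM in Bap1flox, and Cxcl16 at 47.9 RPKM and Ccl6 at 34.8 RPKM in Bap1LysM preOCs. In the libraries where Ccl9 was the highest ligand, it made up 22.4% to 80.4% of the summed ligand RPKM. Ccl6 was the highest in Bap1flox BMM 2 and BMM 3.

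The receptors were led by Cxcr4, the CXCL12 receptor, in Bap1flox BMMs at 46.5 ± 12.9 RPKM (SD, n = 3). The monocyte receptor Ccr2 was at 22.6 RPKM and Ccr1 at 13.7 RPKM there. In Bap1LysM BMMs Ccr2 (30.0 RPKM) and Cxcr4 (29.2 RPKM) were nearly level. Ccr1 led in Bap1flox preOCs at 56.8 ± 12.3 RPKM against 43.8 ± 10.3 RPKM for Cxcr4 (SD, n = 6), a difference within the spread. In Bap1LysM preOCs Cxcr4 led at 93.6 ± 33.8 RPKM, with Ccr1 at 45.5 ± 10.02 RPKM (SD, n = 5). Summed over all members, ligands had group medians of 464 to 677 RPKM and receptors of 107 to 189 RPKM, so the ligand sum exceeded the receptor sum in every group.

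**Figure D2:**
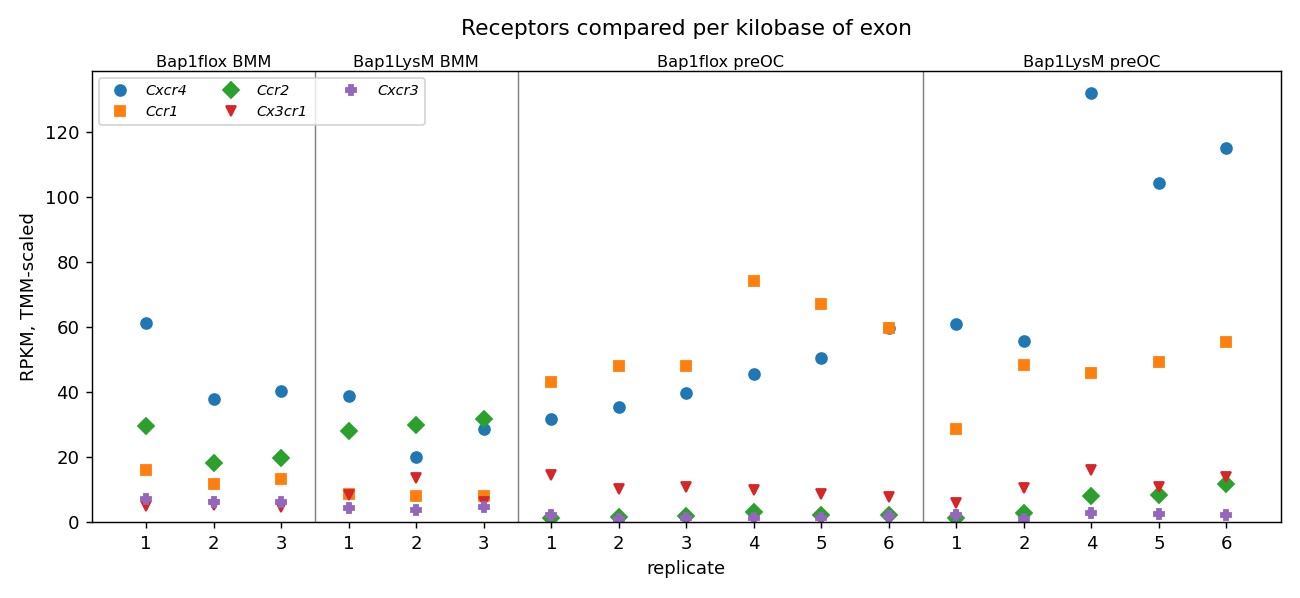
RPKM of the receptors Cxcr4, Ccr1, Ccr2, Cx3cr1 and Cxcr3 on the vertical axis, with 1 symbol per receptor in each of the 17 libraries, which stand along the horizontal axis by replicate within the 4 groups. Ccr1 lies higher in preOCs than in BMMs and Ccr2 lower, and 4 of the 5 Cxcr4 symbols of Bap1LysM preOCs lie above the highest of the Bap1flox preOCs.

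The comparison of Bap1LysM with Bap1flox preOCs asked what Bap1 deletion did after RANKL. At an adjusted p under 0.05 (edgeR quasi-likelihood test, Benjamini-Hochberg over all genes), 7 of the 29 members tested were higher and 2 lower in Bap1LysM preOCs. Of all 12919 genes tested, 7.12% were higher and 8.67% lower. The ligands Ccl22, Ccl24 and Ccl25 and the receptors Ccr7, Ccr2, Cxcr2 and Cxcr4 were higher, and the CCR1 ligands Ccl6 and Ccl9 were lower. Thus 5 of 20 ligands and 4 of 9 receptors passed, all 4 receptors upward. Ccl24 and Ccr7 had entered the test only through their Bap1LysM libraries, so they had to differ, and without them 5 members were higher. The median log2 fold change of the 29 members was 0.18, and that of all genes tested was -0.0071.

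Ccl22, a CCR4 ligand made by macrophages and dendritic cells, was at 0.96, 1.66 and 1.75 CPM in Bap1flox preOCs (lowest, median, highest of 6) and at 5.10, 8.22, 13.1, 12.1 and 8.24 CPM in Bap1LysM preOCs 1, 2, 4, 5 and 6. All 5 Bap1LysM libraries lay above all Bap1flox libraries. The fitted log2 fold change was 2.56 ± 0.24 (SE), a 5.89-fold difference with adjusted p = 0.00034. Ccr7, the receptor that brings dendritic cells to lymph nodes, was at 0.43, 0.73 and 0.79 CPM (lowest, median, highest) in Bap1flox preOCs and at 2.59, 3.36, 3.27, 3.09 and 2.32 CPM in Bap1LysM preOCs. Again the groups did not overlap, and the log2 fold change was 2.07 ± 0.21 (SE, adjusted p = 0.00034). Ccr7 entered the test only through its Bap1LysM libraries, so it had to differ and these values are no support for a difference. Both genes are also expressed by dendritic cells. The summed level of 6 other dendritic cell markers was 9.86 to 90.3 CPM in Bap1flox and 30.0 to 57.3 CPM in Bap1LysM preOCs, with 2 of 6 and 3 of 6 over 1 CPM. Most of this sum was Fscn1, with medians of 30.75 and 30.14 CPM. Zbtb46 ranged from 1.26 to 2.58 CPM and from 1.54 to 6.19 CPM, and Flt3 was at most 0.584 CPM in Bap1flox and at least 0.589 CPM in Bap1LysM preOCs. The part of these markers in the result was not tested.

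Ccl24, an eosinophil attractant of macrophages acting on CCR3, was at 0.080, 0.22 and 0.64 CPM (lowest, median, highest) in Bap1flox preOCs. It was at 0.51, 1.35, 5.09, 3.96 and 3.33 CPM in Bap1LysM preOCs 1, 2, 4, 5 and 6. Only Bap1LysM preOC 1 lay within the Bap1flox range. The log2 fold change of 3.30 ± 0.61 (SE, adjusted p = 0.0046) rests on levels near the limit of detection in Bap1flox cells. Ccl24 entered the test only through its Bap1LysM libraries, so it had to differ. Ccl25, a CCR9 ligand known from thymus and gut, was at 1.64, 2.04 and 2.88 CPM in Bap1flox and 2.53, 3.34, 3.95, 3.74 and 4.57 CPM in Bap1LysM preOCs. Its groups overlapped by 1 Bap1LysM library, with a log2 fold change of 0.70 ± 0.19 (SE, adjusted p = 0.028).

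Among receptors, Cxcr4 was at 57.3, 77.3 and 107.8 CPM (lowest, median, highest) in Bap1flox preOCs and at 110.0, 100.7, 239, 189 and 208 CPM in Bap1LysM preOCs 1, 2, 4, 5 and 6. Only Bap1LysM preOC 2 fell below the highest Bap1flox library. The log2 fold change was 1.05 ± 0.23 (SE), a 2.08-fold difference with adjusted p = 0.0098. Ccr2 was at 8.94, 13.5 and 20.2 CPM in Bap1flox preOCs and at 7.66, 19.1, 52.1, 52.9 and 75.96 CPM in Bap1LysM preOCs. Replicates 1 and 2 of Bap1LysM lay within or below the Bap1flox range and replicates 4 to 6 far above it (log2 fold change 1.56 ± 0.45 SE, adjusted p = 0.035). Cxcr2, the neutrophil receptor for CXCL1, CXCL2, CXCL3 and CXCL5, was at 0.82, 1.59 and 2.23 CPM in Bap1flox and 1.52, 2.40, 3.92, 3.07 and 5.81 CPM in Bap1LysM preOCs, a log2 fold change of 1.07 ± 0.33 (SE, adjusted p = 0.049). Its groups overlapped by Bap1LysM preOC 1. Of 10 neutrophil markers 9 exceeded 1 CPM, and their sum was 91.5 to 245.4 CPM in Bap1flox and 184.9 to 644.3 CPM in Bap1LysM preOCs, with the neutrophil surface gene Ly6g at 0.31 CPM or less. Mmp8, a neutrophil collagenase, went the other way, with medians of 46.6 CPM in Bap1flox and 27.8 CPM in Bap1LysM preOCs. Their part in the Cxcr2 difference was not tested.

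The lower genes were abundant ligands. Ccl9 was at 935, 1245 and 1486 CPM (lowest, median, highest) in Bap1flox preOCs and at 708.5, 768, 909, 1070 and 994 CPM in Bap1LysM preOCs 1, 2, 4, 5 and 6. The ranges overlapped over all replicates. They did not within replicates 1 to 3 (935 to 1157 against 708.5 to 768 CPM) or 4 to 6 (1332 to 1486 against 909 to 1070 CPM). Over all replicates Ccl9 was 1.41-fold lower (log2 fold change -0.49 ± 0.15 SE, adjusted p = 0.040). Ccl6 was at 60.7, 88.5 and 169 CPM in Bap1flox and 64.2, 54.2, 61.6, 72.6 and 60.1 CPM in Bap1LysM preOCs. The ranges overlapped, with a log2 fold change of -0.67 ± 0.21 (SE, adjusted p = 0.049). Ccr1, the receptor both ligands share, was at 122, 153 and 210.4 CPM in Bap1flox and 81.2, 136, 130.3, 139, and 157 CPM in Bap1LysM preOCs, and its difference did not pass (adjusted p = 0.19).

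**Figure D3:**
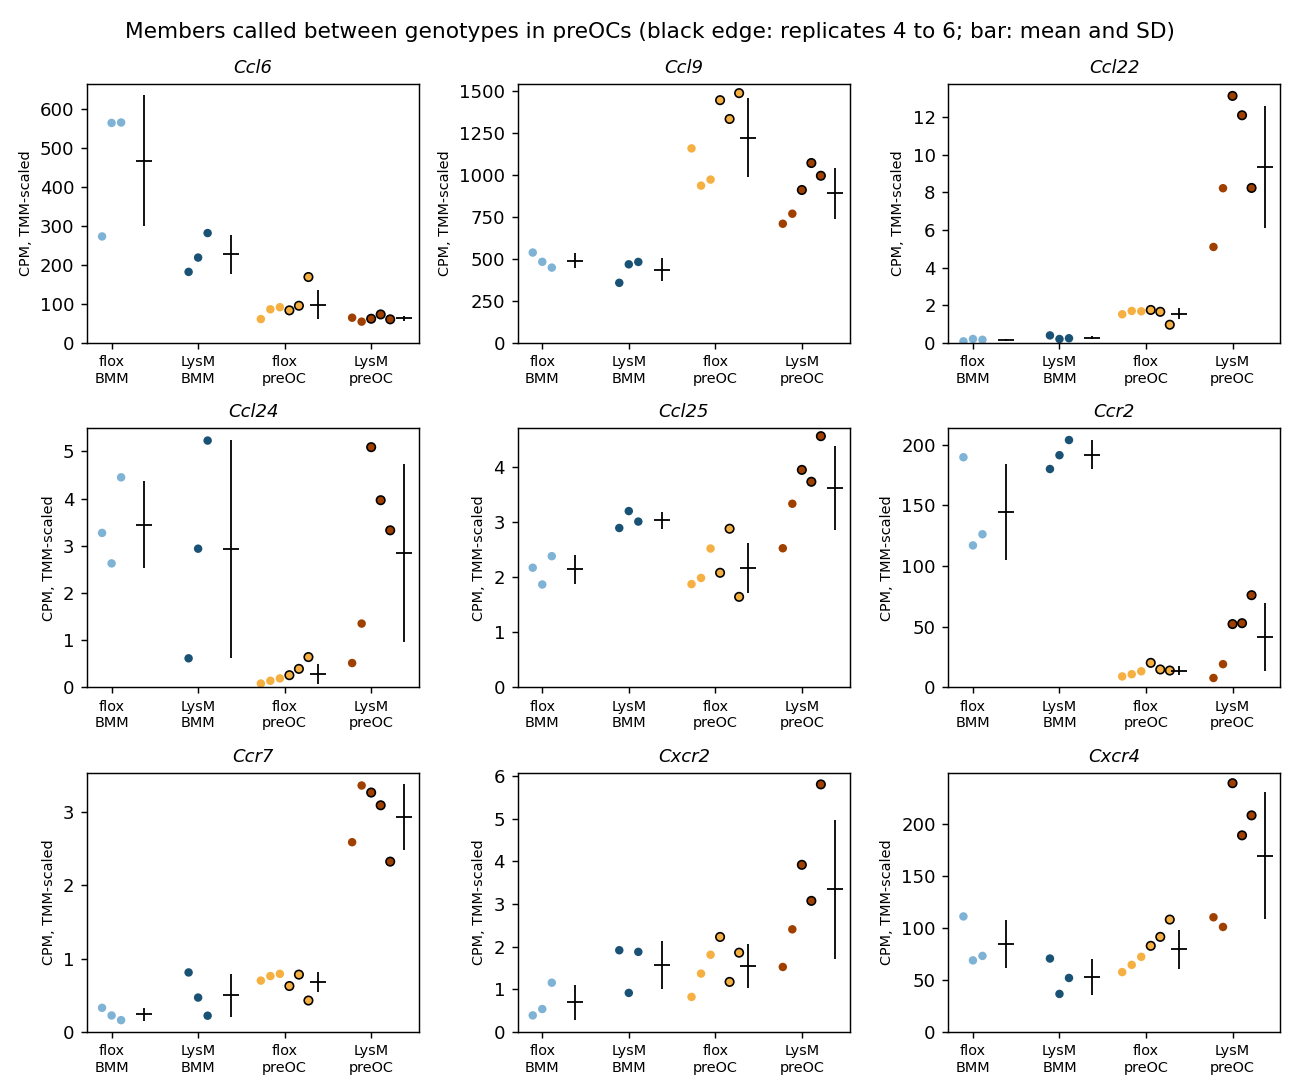
CPM of the 9 members that passed the test between Bap1LysM and Bap1flox preOCs, a panel each, for the 4 groups, with 1 dot per library, a black edge on replicates 4 to 6, and bars for the group mean and SD. Ccl22 and Ccr7 do not overlap between the preOC genotypes, whereas for Ccr2 the upper dots of Bap1LysM preOCs all carry the black edge. Ccr7 and Ccl24 entered the test only through Bap1LysM libraries.

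The calls depended on which libraries entered. Ccl22 and Cxcr4 passed in all 11 fits that left out 1 library, with Ccl22 between 2.41 and 2.71 and Cxcr4 between 0.91 and 1.19 on the log2 scale. Ccl25 passed in 5 of these 11 fits, Ccl9, Ccr2 and Cxcr2 in 3 each and Ccl6 in 2. The share of all genes that passed in these fits ran from 8.3% to 23.9%. Ccr7 and Ccl24, which entered through their Bap1LysM libraries, are not counted here. Without the library labelled Bap1LysM preOC 1, 9 members again passed (23.9% of all genes tested did): Ccl6 (adjusted p = 0.053) and Ccl9 (adjusted p = 0.054) were lost. Cxcl10 (log2 fold change -1.46, adjusted p = 0.044) was among those that then passed as lower.

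Within replicates 1 to 3, with 3 Bap1flox and 2 Bap1LysM libraries, no member and 0% of all genes passed with edgeR, although 7 members had an unadjusted p under 0.05 and all 9 members kept their direction. The log2 fold changes there were 2.01 for Ccl22, 1.96 for Ccr7, 0.69 for Cxcr4 and 0.26 for Ccr2, with adjusted p-values of 0.15, 0.15, 0.17 and 0.75. Ccr7 again entered only through its Bap1LysM libraries. Within replicates 4 to 6, with 3 libraries of each genotype, all 9 and another 10 members passed, where 33.7% of all genes did. The 10 included the CCR2 ligands Ccl2 (log2 fold change 1.396), Ccl7 (2.26) and Ccl12 (1.15) as higher. Cxcl2 (1.06), Cx3cr1 (0.58) and Cxcr3 (0.71) were also higher, and Ccr1 (-0.46), Cxcl10 (-0.70) and Cxcl14 (-0.93) lower. Like Ccl24 and Ccr7, Ccl7 and Ccl12 entered this fit only through Bap1LysM libraries, so they had to differ. Cxcl2, at 0.62 to 1.05 CPM in Bap1flox, entered mostly through them. With the replicate number as a block, 14 members passed, where 32.8% of all genes did. Ccl6 was then lost (adjusted p = 0.054), while those added included Ccl2 (log2 fold change 1.07), Ccl7 (1.48), Ccl8 (2.22), Ccr1 (-0.40) and Cxcl12 (-0.83).

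The monocyte attractants that share CCR2 show this spread. Ccl2 was at 5.16, 11.1 and 49.0 CPM (lowest, median, highest) in Bap1flox preOCs and at 78.6, 32.5, 16.7, 18.3 and 16.9 CPM in Bap1LysM preOCs 1, 2, 4, 5 and 6, and did not pass (adjusted p = 0.38). In each genotype replicates 1 and 2 were above replicates 4 to 6. Ccl7 had the same order, with 0.77, 2.29 and 7.88 CPM in Bap1flox and 15.2, 4.69, 4.30, 4.55 and 4.12 CPM in Bap1LysM preOCs (adjusted p = 0.31). Ccl8 was at 0.032, 0.94 and 1.31 CPM in Bap1flox and 12.1, 2.60, 1.44, 2.31 and 1.37 CPM in Bap1LysM preOCs. All 5 Bap1LysM values lay above all Bap1flox values, and its log2 fold change of 2.29 ± 0.75 (SE) did not pass (adjusted p = 0.058). That value rests on Bap1LysM preOC 1, without which it was 1.22 (adjusted p = 0.16).

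The other abundant members did not pass in preOCs over all replicates. Ccl3 ranged from 8.33 to 18.5 CPM (median 11.95 CPM) in Bap1flox and stood at 20.8, 6.01, 9.44, 8.82 and 8.95 CPM in Bap1LysM preOCs. Ccl4, like Ccl3 a macrophage inflammatory protein, ranged from 1.10 to 5.23 CPM (median 1.75 CPM) and stood at 6.97, 1.23, 1.41, 1.52 and 1.13 CPM. Ccl5, the T cell and monocyte attractant, ranged from 2.10 to 19.6 CPM (median 8.99 CPM) and stood at 89.7, 13.8, 4.69, 4.21 and 4.36 CPM. In all 3 ligands Bap1LysM preOC 1 was above every other preOC library, and over all replicates the remaining libraries of the genotypes overlapped. Within replicates 4 to 6 Ccl5 did not overlap, at 2.10 to 3.61 CPM in Bap1flox, and did not pass there (adjusted p = 0.058). It passed with the replicate set as a term (log2 fold change 1.12, adjusted p = 0.045) but not with the replicate block (0.82, adjusted p = 0.085), fits that both hold Bap1LysM preOC 1. Cxcl10, the interferon-induced CXCR3 ligand, was at 7.67, 10.9 and 40.1 CPM (lowest, median, highest) in Bap1flox and 56.2, 7.17, 5.40, 4.70 and 6.10 CPM in Bap1LysM preOCs. Bap1LysM preOC 1 was again the highest library, while the other 4 Bap1LysM libraries lay below every Bap1flox library. Its log2 fold change of 0.02 ± 0.72 (SE, adjusted p = 0.99) turned negative without that library, as given above.

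Cxcl16 ranged from 106 to 158 CPM (median 127 CPM) in Bap1flox preOCs and stood at 236, 88.3, 143, 129 and 128 CPM in Bap1LysM preOCs. Cxcl14, an epithelial and macrophage ligand, ranged from 2.39 to 9.34 CPM (median 6.77 CPM) and stood at 7.07, 6.90, 4.16, 3.43 and 3.01 CPM. Cxcl12, the marrow retention factor of stromal cells, ranged from 3.36 to 33.1 CPM (median 7.88 CPM) and stood at 5.73, 12.8, 3.68, 1.46 and 3.54 CPM. None of the 3 passed over all replicates, the adjusted p-values being 0.71, 0.40 and 0.21, while Cxcl14 passed within replicates 4 to 6. The summed level of 7 stromal markers other than Cxcl12 was 217.7 to 2168 CPM in Bap1flox and 122.1 to 1398 CPM in Bap1LysM preOCs, and their part in the spread of Cxcl12 was not tested. About 18.3% of the exonic bases of Cxcl16 also belong to Zmynd15 on the opposite strand, and the strand setting of the counting is not given in the sources used here.

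Another 3 receptors were well above 1 CPM. Ccr3, the eotaxin receptor, ranged from 8.68 to 18.6 CPM (median 13.5 CPM) and stood at 10.2, 18.1, 10.98, 13.7 and 16.5 CPM, with full overlap. Cx3cr1, the fractalkine receptor of monocytes and macrophages, ranged from 29.5 to 53.9 CPM (median 37.8 CPM) and stood at 22.03, 39.3, 60.3, 40.5 and 52.1 CPM. Cxcr3, best known as a receptor of activated T cells, ranged from 1.66 to 3.63 CPM (median 2.33 CPM) and stood at 3.65, 1.99, 5.02, 4.42 and 3.67 CPM (adjusted p = 0.18). Over all replicates none of the 3 passed, while Cx3cr1 and Cxcr3 did within replicates 4 to 6. T and NK cell markers summed to 0.77 CPM or less in every library.

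The rest of the tested members were low. Mean levels in Bap1flox and Bap1LysM preOCs were 1.32 ± 1.1 and 1.81 ± 1.4 CPM for the CCR2 ligand Ccl12, 1.38 ± 1.1 and 1.80 ± 0.53 CPM for the neutrophil attractant Cxcl2, and 0.81 ± 0.36 and 0.56 ± 0.37 CPM for its relative Cxcl3 (SD, n = 6 and n = 5). They were 2.09 ± 1.4 and 1.26 ± 0.91 CPM for Cx3cl1, the membrane-bound ligand of Cx3cr1, and 1.35 ± 0.24 and 1.57 ± 0.72 CPM for Ccl27a. None passed over all replicates, with log2 fold changes of 0.42 for Ccl12, 0.34 for Cxcl2, -0.59 for Cxcl3, -0.77 for Cx3cl1 and 0.18 for Ccl27a, each smaller than 2 standard errors. Within replicates 4 to 6 Ccl12 and Cxcl2 passed, with the limit given above. The members over 1 CPM that were left out of the tests peaked at 1.05 CPM for Cxcl11 in Bap1LysM preOC 1, 1.42 CPM for Ccr10 in Bap1flox BMM 1 and 1.35 CPM for Ackr4 in Bap1LysM preOC 6.

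**Figure D4:**
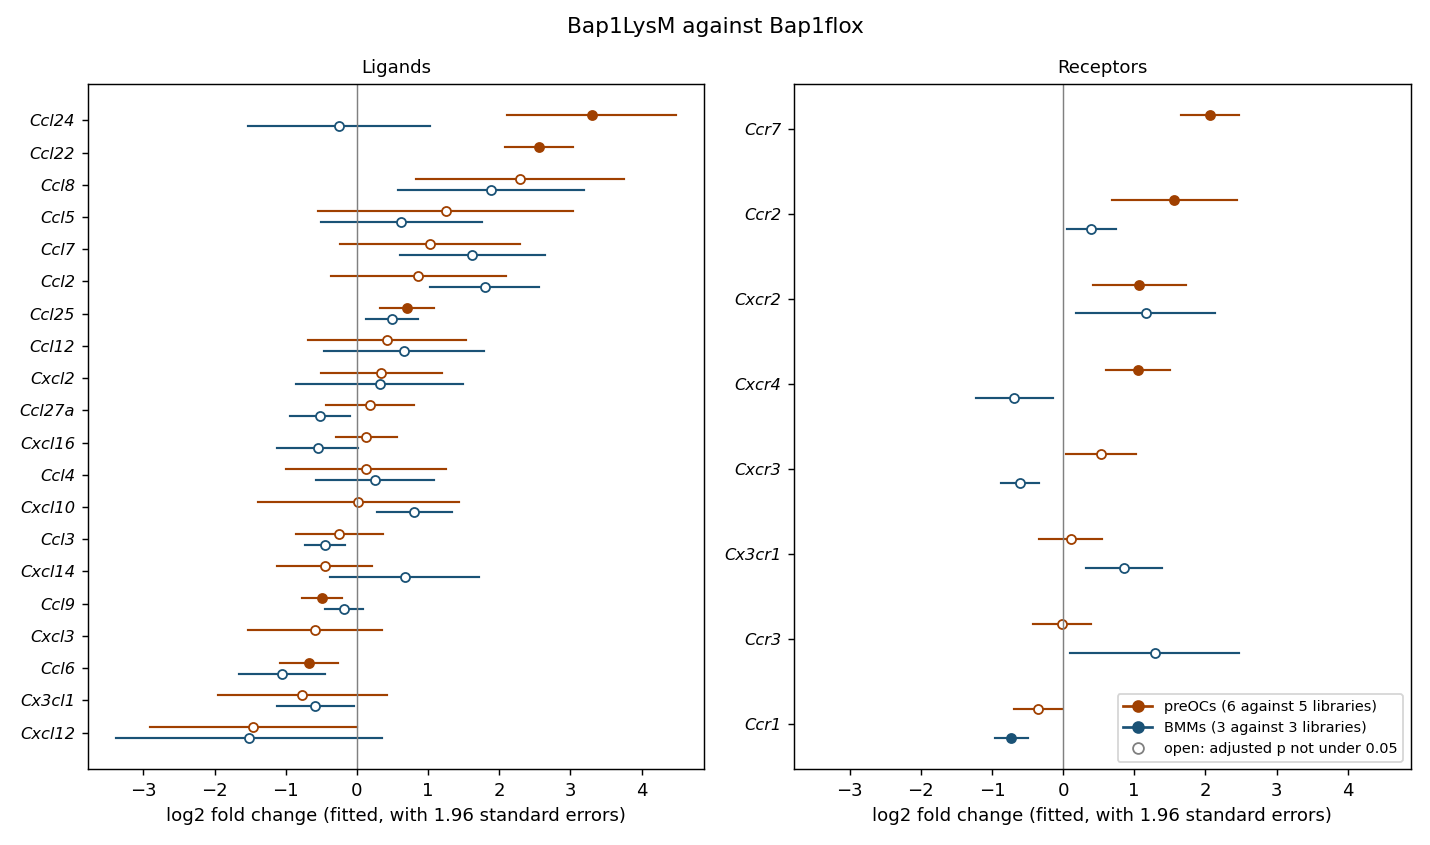
Log2 fold change of Bap1LysM over Bap1flox for the tested members, 1 left out, in preOCs (brown) and BMMs (blue), with bars of 1.96 SE, filled points past the threshold and open points not. In preOCs 9 points are filled, led by Ccl24, Ccl22 and Ccr7, while in BMMs Ccr1 is the 1 filled point and many bars are wide. Ccl24 and Ccr7 entered the preOC test only through Bap1LysM libraries.

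Before RANKL, the same comparison in BMMs asked whether the genotypes already differed. Of 26 members tested, none was higher and 1 lower in Bap1LysM BMMs, where 1.31% of all genes tested were higher and 4.01% lower. The median log2 fold change of the members was 0.29 and that of all genes -0.0072. An unadjusted p under 0.05 was reached by 11 of the 26 members and by 3416 of the 13028 genes tested. Ccr1 was the member that passed, at 45.1, 33.6 and 37.5 CPM in Bap1flox and 24.6, 23.3 and 22.9 CPM in Bap1LysM BMMs 1 to 3. The groups did not overlap, and Ccr1 was 1.66-fold lower (log2 fold change -0.73 ± 0.12 SE, adjusted p = 0.026). It passed in 1 of the 6 fits that left out 1 library, where 0.0311% to 5.83% of all genes did. Without the library labelled Bap1LysM BMM 1 no member passed (2.84% of all genes did, and 11 members had an unadjusted p under 0.05), and Ccr1 had a log2 fold change of -0.76 with adjusted p = 0.053.

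Monocyte attractants were next. Ccl2 was at 11.1, 25.3 and 20.5 CPM in Bap1flox and 50.5, 99.6 and 49.6 CPM in Bap1LysM BMMs. The groups did not overlap, and its log2 fold change of 1.80 ± 0.39 (SE) came just short of the threshold (adjusted p = 0.0502). Ccl7 was at 2.60, 10.8 and 9.81 CPM against 21.1, 32.9 and 18.1 CPM, and Ccl8 at 0.96, 4.38 and 3.67 CPM against 19.3, 4.96 and 9.34 CPM. For both, every Bap1LysM value was above every Bap1flox value, with log2 fold changes of 1.62 (adjusted p = 0.11) and 1.88 (adjusted p = 0.14), the latter 1.23 without Bap1LysM BMM 1. Ccl6 went the other way, at 272, 563 and 564 CPM in Bap1flox and 182, 218 and 281 CPM in Bap1LysM BMMs, with overlap by 1 library and a log2 fold change of -1.06 (adjusted p = 0.090).

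With the replicate number as a block, 8 members passed in BMMs, where 16.2% of all genes did. These were Ccl2 (log2 fold change 1.80), Ccl7 (1.78) and Cx3cr1 (0.78) as higher, and Ccr1 (-0.72), Ccl6 (-1.0), Cxcl12 (-1.31), Cxcr3 (-0.61) and Cxcr4 (-0.70) as lower. Cxcr4 was at 110.8, 68.6 and 72.9 CPM in Bap1flox and 70.4, 36.4 and 51.7 CPM in Bap1LysM BMMs, with overlap by 1 library. In the fit without the block its adjusted p was 0.17. Cx3cr1 was at 19.2, 20.4 and 17.5 CPM against 31.0, 50.5 and 23.0 CPM, and Cxcr3 at 12.5, 10.8 and 11.02 CPM against 7.80, 6.61 and 8.30 CPM. Neither overlapped between genotypes, and without the block their adjusted p-values were 0.11 and 0.053. Cxcl12 was at 10.54, 106 and 125 CPM against 7.04, 28.7 and 49.5 CPM, and the summed stromal markers at 585.8 to 3031 CPM against 443.3 to 1446 CPM, a relation whose part in the result was not tested.

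The remaining abundant members overlapped between the BMM genotypes or did not pass. Ccl9 was at 537, 482 and 447 CPM in Bap1flox and 357, 467 and 481 CPM in Bap1LysM BMMs. Ccl3 was at 37.9, 50.01 and 53.6 CPM against 36.6, 35.0 and 33.5 CPM, without overlap (adjusted p = 0.11). Ccl4 was at 5.39, 15.0 and 12.02 CPM against 19.1, 10.52 and 9.44 CPM. The genotypes overlapped for Ccl4. Ccl5 was at 16.8, 26.3 and 25.4 CPM against 68.1, 11.7 and 27.0 CPM, Cxcl14 at 3.91, 16.8 and 13.0 CPM against 11.54, 26.2 and 16.4 CPM, and Cxcl16 at 104, 78.5 and 83.4 CPM against 82.9, 35.7 and 64.1 CPM. Bap1LysM BMM 1 held the highest Ccl5 value by far. Ccr2 was at 190, 117 and 126 CPM against 180.0, 191 and 204 CPM, with overlap (adjusted p = 0.21). Ccr3 was at 1.67, 2.60 and 3.34 CPM against 12.4, 2.58 and 3.89 CPM, again highest in Bap1LysM BMM 1.

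The effect of RANKL was measured within each genotype over replicates 1 to 3, since BMM libraries carry these numbers alone, in 1 fit of 11 libraries that held 2 Bap1LysM preOC libraries. The comparisons share the estimate of spread but not their libraries. In Bap1flox cells 8 of 29 members were higher and 8 lower in preOCs than in BMMs, where 29.4% of all genes tested were higher and 28.7% lower. In Bap1LysM cells 7 were higher and 6 lower, where 21.2% and 17.7% of all genes were. The higher members include Ccl22 and Ccr7 in both genotypes and Cxcl3 in Bap1flox cells, which exceeded 1 CPM in preOCs alone and so entered the test only where they were higher. The shares of members lie near those of all genes. Median log2 fold changes of the members were -0.38 and -0.18, against -0.031 and 0.0079 for all genes.

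The receptors divided. Ccr1 rose with RANKL, by 1.77 ± 0.18 on the log2 scale (SE, adjusted p = 4.3e-05) in Bap1flox and 2.21 ± 0.19 (adjusted p = 6.3e-05) in Bap1LysM cells, from the BMM and preOC levels given above, which do not overlap. Ccr2 fell by 3.71 (SE 0.33, adjusted p = 2.6e-05) and by 3.84 (SE 0.39, adjusted p = 0.00014), from 117 CPM or more in every BMM library to 19.1 CPM or less in every preOC library of replicates 1 to 3. In Bap1LysM cells it fell by 4.64 without preOC 2. Cxcr3 fell by 2.22 (adjusted p = 0.00022) and 1.42 (adjusted p = 0.0094), the latter call being lost without Bap1LysM preOC 2 (adjusted p = 0.080). Ccr7 rose by 1.66 (adjusted p = 0.0097) in Bap1flox and 2.59 (adjusted p = 0.0018) in Bap1LysM cells, but passed the filter on low counts through the Bap1LysM preOCs and was not tested when either was left out. In Bap1flox cells Ccr3 (log2 fold change 2.07, adjusted p = 0.0078) and Cx3cr1 (1.22, adjusted p = 0.0054) also rose. In Bap1LysM cells Cxcr4 rose (1.00, adjusted p = 0.014).

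Ccr1, Ccr3 and Ccr2 are neighbours on chromosome 9, where Ccr1 and Ccr3 were higher and Ccr2 lower with RANKL in Bap1flox cells. A cluster of 5 CC ligands at chr11:83525778-83664683 (GRCm38), a span of 139 kb, was likewise split. There Ccl9 rose by 1.07 (adjusted p = 0.00016) in Bap1flox and 0.77 (adjusted p = 0.0035) in Bap1LysM cells on the log2 scale. Its neighbour Ccl6 fell by 2.56 (adjusted p = 8.5e-05) and 1.94 (adjusted p = 0.0018), and Ccl3 fell by 1.74 (adjusted p = 0.0027) and 1.38 (adjusted p = 0.027). In Bap1LysM cells the fall of Ccl3 depended on the libraries, since it fell by 2.54 without preOC 1 and by 2.51 without both libraries of high Lyz2. It did not pass without preOC 2 (log2 fold change -0.75, adjusted p = 0.081), BMM 1 (adjusted p = 0.053) or BMM 3 (adjusted p = 0.052). Ccl4 fell by 1.76 in Bap1flox cells (adjusted p = 0.035), a call lost without Bap1flox BMM 2, BMM 3, preOC 2 or preOC 3, and Ccl5 did not pass in either genotype. Ccl27a, a skin ligand close to Ccl27b in sequence, was at 0.53 to 2.52 CPM, and reads could be lost or split between such copies. Its log2 fold changes were -0.88 (adjusted p = 0.021) and -0.93 (adjusted p = 0.046). Neither call held throughout: leaving out Bap1flox BMM 1, BMM 3, preOC 1 or preOC 3 ended the first (adjusted p = 0.0503 to 0.070), and leaving out any 1 library but Bap1LysM preOC 2 ended the second (adjusted p = 0.052 to 0.24), as did the replicate block (adjusted p = 0.055).

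Outside that cluster, Ccl22, Cxcl3 and Cxcl10 were among the ligands that rose. Ccl22 and Cxcl3 had to be higher in preOCs, since they passed the filter through preOC libraries alone. Ccl22 rose by 3.48 ± 0.38 on the log2 scale (SE, adjusted p = 6.1e-05) in Bap1flox and 4.59 ± 0.38 (adjusted p = 5.0e-05) in Bap1LysM cells, or 5.21 without both libraries of high Lyz2. It was at 0.077, 0.20 and 0.16 CPM in Bap1flox and 0.39, 0.20 and 0.24 CPM in Bap1LysM BMMs, below every preOC library. Ccl22 lies on chromosome 8 beside Cx3cl1 (fractalkine) and Ccl17, within chr8:94745590-94812035. On chromosome 5, Cxcl3, a neutrophil attractant, was at 0.13, 0.067 and 0.040 CPM in Bap1flox BMMs and 1.12, 1.12 and 0.98 CPM in Bap1flox preOCs 1 to 3. These sets lie far apart although both are low, and the log2 fold change was 3.69 ± 0.68 (SE, adjusted p = 0.0012). Cxcl10 was at 3.16, 3.29 and 2.60 CPM in Bap1flox and 5.11, 3.65 and 7.204 CPM in Bap1LysM BMMs, and rose by 2.90 ± 0.70 (SE, adjusted p = 0.0054) and by 2.58 ± 0.73 (adjusted p = 0.018). In Bap1LysM cells the rise of Cxcl10 rested on preOC 1, without which the log2 fold change was 0.43 (adjusted p = 0.59): preOC 2, at 7.17 CPM, lay within the range of the BMMs. The call was also lost without Bap1LysM BMM 1 (adjusted p = 0.0502) or BMM 2 (adjusted p = 0.060). Ccl24 fell by 4.64 ± 0.78 (SE, adjusted p = 0.00069) in Bap1flox cells, from 3.27, 2.62 and 4.45 CPM in BMMs to 0.19 CPM or less in preOCs. Bap1LysM BMMs held 0.61, 2.94 and 5.23 CPM. Ccl24 met the filter through BMMs and Bap1LysM preOC 2 and not through Bap1flox preOCs, so the filter favoured its fall. Cxcl16 rose by 1.42 (adjusted p = 0.020) in Bap1LysM cells, but without preOC 1 its log2 fold change was 0.54 (adjusted p = 0.28), and without BMM 2 it did not pass either (adjusted p = 0.053). Cxcl11, an interferon-induced CXCR3 ligand, was tested only with a filter at 0.2 CPM or with none, which it passed through preOCs, and was then called in both genotypes (adjusted p = 0.0093 and 0.022 at 0.2 CPM). It was at 0.089 CPM or less in every BMM library.

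**Figure D5:**
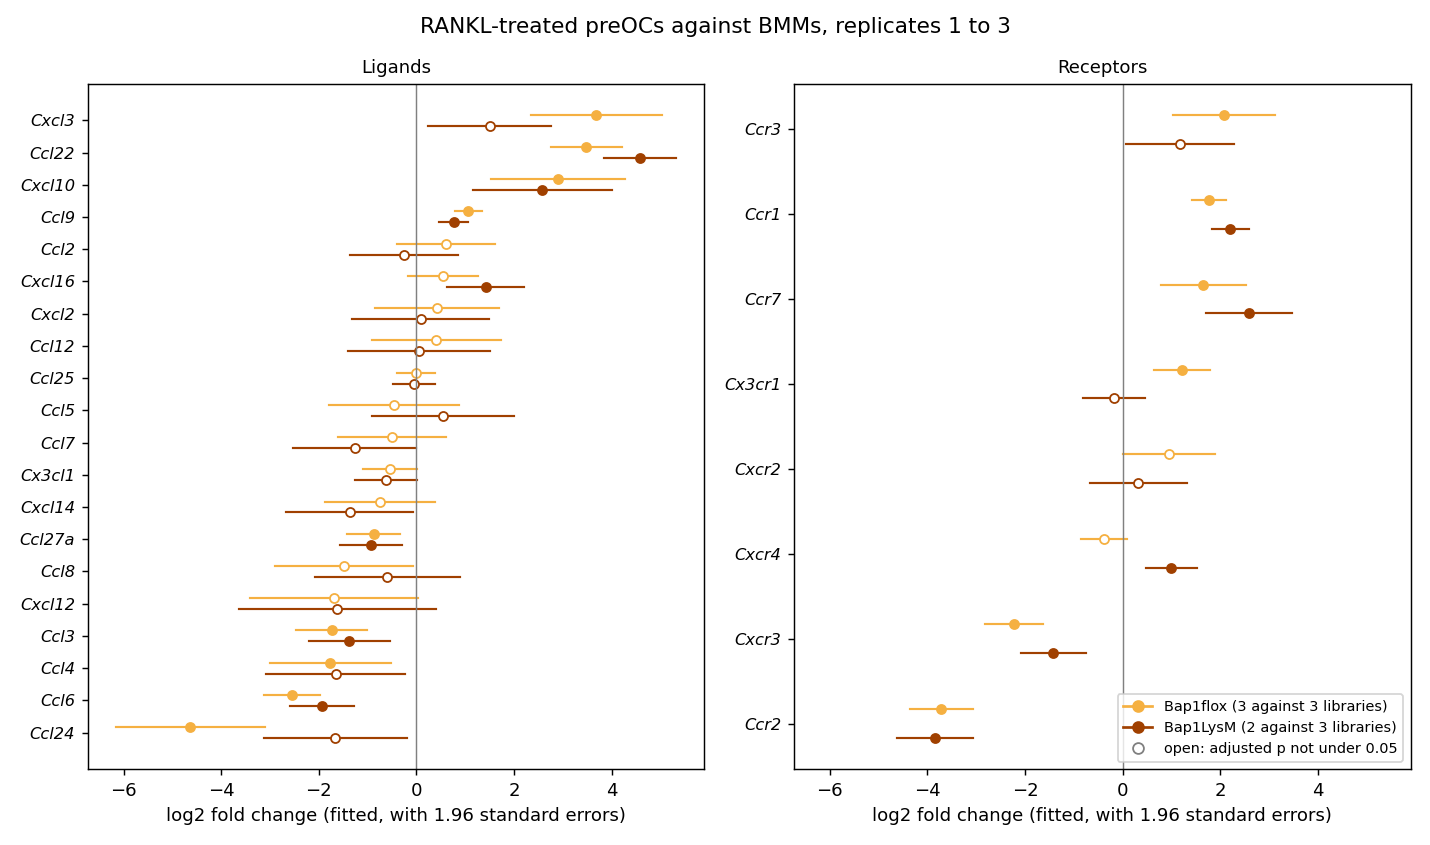
Log2 fold change of preOCs over BMMs for the tested members, 1 left out, replicates 1 to 3, in Bap1flox (orange) and Bap1LysM cells (brown), with bars of 1.96 SE, filled points past the threshold and open points not. Ccl22, Ccr1 and Ccl9 are filled to the right and Ccr2, Ccl6, Cxcr3 and Ccl3 to the left in both genotypes.

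The promoters of Cxcl3, Cxcl10 and Ccl22, which rose with RANKL, and of 2 neighbours of Cxcl3 are shown because the CXC ligands among them carry a short run of letters in common. Each sequence spans 250 bases before and 50 after the start of the gene in RefSeq (GRCm38.p6), in the direction of the gene. A search on both strands for GGANNTTCC, a run like that bound by NF-κB, found it in 7 of the 45 member promoters in the RefSeq table (15.6%) and in 4.26% of all 32817 promoters. The 7 were 6 of 27 ligands, including Cxcl1, Cxcl2, Cxcl3 and Cxcl10, and 1 of 18 receptors, Ccr3. A search for GAAANNGAA, a run like the interferon-stimulated response element, matched 8 of the 45 (17.8%), among them Cxcl10 and Ccr2, and 8.55% of all promoters. Matches are in capitals, and a match is not a measured binding site. The promoters are of Cxcl3 at chr5:90785851-90786150 (plus strand), Cxcl1 at chr5:90890995-90891294 (plus), Cxcl2 at chr5:90903649-90903948 (plus), Cxcl10 at chr5:92348840-92349139 (minus) and Ccl22 at chr8:94745434-94745733 (plus).
Cxcl3: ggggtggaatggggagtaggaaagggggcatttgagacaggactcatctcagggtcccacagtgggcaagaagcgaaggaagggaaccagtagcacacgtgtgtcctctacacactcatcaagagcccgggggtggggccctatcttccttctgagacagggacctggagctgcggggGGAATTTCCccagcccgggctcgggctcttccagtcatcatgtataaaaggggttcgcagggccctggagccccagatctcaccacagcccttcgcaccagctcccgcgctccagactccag
Cxcl1: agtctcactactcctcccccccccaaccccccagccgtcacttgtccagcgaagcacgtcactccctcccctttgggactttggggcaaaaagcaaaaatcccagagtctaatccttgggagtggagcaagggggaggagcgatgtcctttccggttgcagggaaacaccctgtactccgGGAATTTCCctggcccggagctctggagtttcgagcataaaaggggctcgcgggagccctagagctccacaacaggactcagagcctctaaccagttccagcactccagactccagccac
Cxcl2: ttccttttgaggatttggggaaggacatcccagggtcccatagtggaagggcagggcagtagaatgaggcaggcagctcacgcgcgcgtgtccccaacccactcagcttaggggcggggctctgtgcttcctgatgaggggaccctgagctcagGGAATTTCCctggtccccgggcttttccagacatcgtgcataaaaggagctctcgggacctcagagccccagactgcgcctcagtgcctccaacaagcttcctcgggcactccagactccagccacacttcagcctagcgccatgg
Cxcl10: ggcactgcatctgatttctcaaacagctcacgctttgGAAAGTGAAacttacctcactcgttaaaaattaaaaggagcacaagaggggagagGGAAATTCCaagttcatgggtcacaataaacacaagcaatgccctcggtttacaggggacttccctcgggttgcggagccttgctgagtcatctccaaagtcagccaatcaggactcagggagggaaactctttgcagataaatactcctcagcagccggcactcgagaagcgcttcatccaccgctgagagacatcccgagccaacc
Ccl22: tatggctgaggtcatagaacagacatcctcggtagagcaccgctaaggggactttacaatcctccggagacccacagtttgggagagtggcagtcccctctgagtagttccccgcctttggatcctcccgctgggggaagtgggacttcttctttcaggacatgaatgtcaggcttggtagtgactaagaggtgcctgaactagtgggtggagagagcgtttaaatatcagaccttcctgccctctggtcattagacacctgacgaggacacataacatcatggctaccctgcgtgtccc

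In Cxcl3, Cxcl1 and Cxcl2 the capitals mark the first search, starting 72, 70 and 96 bases before the start site. In Cxcl10 the first capitals mark the second search, starting 213 bases before the start site, and the later ones the first search, starting 158 bases before it. Neither search matched in Ccl22, whose RefSeq start lies 94 bases from that of the count tables. Of the neighbours of Cxcl3 that share the run, Cxcl2 lay between 0.62 and 3.57 CPM in all 17 libraries and did not pass with RANKL (adjusted p = 0.59 in Bap1flox cells), and Cxcl1, at or below 0.52 CPM, was not tested. No difference between these genes was tested.

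Whether the genotypes answered RANKL differently was tested as the interaction of genotype and RANKL. With edgeR none of 29 members and 0% of the 13635 genes tested passed. An unadjusted p under 0.05 was reached by 4 of the 29 members and by 1718 of the 13635 genes, similar shares. The 4 were Cxcr4 (difference of log2 fold changes 1.38 ± 0.36 SE, unadjusted p = 0.0032, adjusted p = 0.33), Cx3cr1 (-1.40 ± 0.44), Ccl24 (2.97 ± 1.04) and Cxcl3 (-2.18 ± 0.96). Of these, DESeq2 called Cxcr4 alone (adjusted p = 0.045), where 0.858% of all genes passed. A fit of all 17 libraries with the replicate set as a term called Cxcr4, Ccl24 and Cxcr3, where 10.5% of all genes passed. The passing of a member in 1 genotype and not in the other, as for Ccr3, Cx3cr1, Cxcl3, Cxcl16 and Ccl4, is thus not shown to be a difference between them. Without both libraries of high Lyz2, 13 members again passed with RANKL in Bap1LysM cells (44% of all genes did). Ccl27a, Ccr7, Cxcl10 and Cxcl16 were lost and Ccl24, Ccl4, Ccl7 and Ccr3 added.

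Of 51 other genes of chemokine biology, 47 were tested. In Bap1LysM against Bap1flox preOCs 11 were higher and 2 lower, where 7.12% and 8.67% of all genes were. Among the higher were Ppbp, a platelet CXC ligand outside the naming rule (log2 fold change 1.81, adjusted p = 0.018), and Cmklr1, the chemerin receptor (1.72, adjusted p = 0.0046). Of 38 genes that act downstream of the receptors, 9 were higher, among them the Src-family kinase Fgr (0.99, adjusted p = 0.0012), the receptor kinases Grk5 (0.82, adjusted p = 0.015) and Grk3 (0.54, adjusted p = 0.039), the Rac activator Dock2 (0.64, adjusted p = 0.015) and the arrestin Arrb1 (0.41, adjusted p = 0.0085). Tiam1 (-0.80, adjusted p = 0.0016), another Rac activator, and Grk6 (-0.59, adjusted p = 0.025) were lower. In BMMs 1 of the 47 passed, the sheddase Adam10 (0.57, adjusted p = 0.045), where 1.31% of all genes were higher and 4.01% lower. With RANKL, 7 were higher and 21 lower in Bap1flox cells, where 29.4% and 28.7% of all genes were. In Bap1LysM cells 7 were higher and 16 lower, where 21.2% and 17.7% of all genes were. Grk3 rose by 3.47 and 3.77 on the log2 scale and the chemokine-cleaving protease Mmp9, itself a preosteoclast marker, by 7.10 and 6.20. The platelet factor Pf4 fell by 3.63 and 3.08, Ppbp by 2.84 and 1.79, and Cmklr1 by 2.68 and 1.13. None of the 47 passed in the interaction with edgeR.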

How the data were processed

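The members and gene lists were chosen with earlier results of these data known. The authors prepared poly-A libraries, sequenced them in pairs on a NovaSeq, aligned reads with STAR 2.5.1a to GRCm38 (Ensembl annotation) and counted uniquely aligned reads per gene with featureCounts 1.4.6-p5. The deposited tables hold raw counts, used for every test. The deposited CPM and RPKM values are those counts divided by library total and, for RPKM, exonic length. The deposited CPM served the filter, and the levels printed here were recomputed from the counts with TMM factors over all 17 libraries. Ribosomal RNA genes (355, by GENCODE M21) were left out, and symbols were matched for 40254 of 41388 Ensembl IDs.

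Genes entered a test with CPM above 1 in at least 4 of 11 preOC, 2 of 6 BMM or 2 of 11 libraries for RANKL. Tests were edgeR 4.0.16 quasi-likelihood F tests (R 4.3.3, two-sided) with Benjamini-Hochberg adjustment over all genes and a threshold of 0.05, where the study used limma voomWithQualityWeights. Group means, SDs and medians were over libraries, and the limit of 3 counts covers counting error only. Alternatives were DESeq2 1.42.0, limma 3.58.1, other scalings and filters, library sets and leaving out each library. Fitting was tested on simulated data. Members called in a genotype comparison or averaging at least 10 CPM in a group were given by library, other tested members by mean, and untested members by peak. Results of 1 member are not reported here, although it stays in the counts and sums.

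The replicate numbers pair same-numbered libraries only by the data: deviations from group means correlated by 0.392 to 0.730 between preOC genotypes, 0.363 to 0.537 between BMM genotypes, 0.231 to 0.366 for RANKL in Bap1flox and 0.356 to 0.496 in Bap1LysM cells. Once the mean of each replicate set was removed, the preOC values were -0.146 to 0.445. The authors' statements do not describe the BMM libraries separately.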

Additional observations from a re-analysis of the deposited data

Results flagged for a closer look

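In 46 sets of 5 or 6 libraries (23 members in each preOC genotype), the highest or lowest library stood apart from its group by Dixon's criterion 11 times. The criterion's chance rate of about 1 in 20 holds for independent sets. These sets share the same libraries and pool both replicate sets, so the 11 cannot be set against that rate. Of the 11, 7 were the library labelled Bap1LysM preOC 1, whose Lyz2 level was 80.6% of the Bap1flox mean. It was the highest of its group for Ccl2 (78.64 CPM), Ccl3 (20.76 CPM), Ccl4 (6.973 CPM), Ccl5 (89.72 CPM), Ccl7 (15.23 CPM), Ccl8 (12.11 CPM) and Cxcl10 (56.24 CPM). The next Bap1LysM preOC library had 32.49 CPM of Ccl2, 13.77 CPM of Ccl5 and 7.17 CPM of Cxcl10. In Bap1flox preOCs, replicate 1 was the highest for Ccl4 (5.229 CPM) and Cxcl10 (40.06 CPM), and replicate 6 the highest for Ccl6 (168.5 CPM) and the lowest for Ccl22 (0.9605 CPM).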

How the results depend on the processing

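In preOCs the 9 members called became 18 with voomWithQualityWeights (54.9% of all genes tested passed), 14 with the replicate block (32.8%), 14 with the replicate set as a term (33.6%), 0 in replicates 1 to 3 alone (0%) and 19 in replicates 4 to 6 alone (33.7%). Leaving out 1 library gave 3 to 9 (8.3% to 23.9% of all genes). In BMMs the 1 member called became 6 with voomWithQualityWeights (13.6% of all genes), 7 with DESeq2 (15.9%), 2 with upper-quartile factors (6.07%), 2 without a filter (3.12%), 8 with the replicate block (16.2%) and 0 in a fit of all 17 libraries (4.85%). Without 1 library it became 0 to 4 (0.0311% to 5.83% of all genes). For the interaction the 0 became 1 with DESeq2 and 3 with all 17 libraries and the replicate set as a term. The RANKL counts stayed within 1.5 times of 16 and 13 under every alternative run, the block included, with 9 in Bap1LysM cells under voomWithQualityWeights. Over these alternatives 28.5% to 76.2% of all genes passed in Bap1flox and 17.8% to 49.4% in Bap1LysM cells. The sign of Cxcl10 between preOC genotypes reversed with voomWithQualityWeights (-1.24), upper-quartile factors (-0.067, while the median of all genes moved from -0.0071 to -0.0665), the replicate block (-0.48), the replicate set as a term (-0.14), replicates 4 to 6 alone (-0.70) and on leaving out 1 library (between -1.46, without Bap1LysM preOC 1, and 0.57). Ccl4 reversed with voomWithQualityWeights (-0.35) and the replicate block (-0.033), Ccl5 with voomWithQualityWeights (-0.52) and Cxcl16 in replicates 4 to 6 alone (-0.0020). Replicates 1 to 3 alone reversed Ccl27a (-0.58), Cxcl2 (-0.014), Cxcl14 (0.049), Cx3cr1 (-0.55) and Ccr3 (0.38). Ccr3, at -0.0086 in the reported fit, was at 0.016 with DESeq2 and 0.017 with RLE factors, much as the median of all genes moved to 0.018 in both. Leaving out 1 library, Bap1LysM preOC 1 in each case for the lowest values of the ligands, spanned -0.79 to 0.59 for Ccl4, -0.57 to 1.58 for Ccl5, -0.19 to 0.94 for Ccl12 and -0.13 to 0.26 for Cxcl16, and for the receptors -0.13 to 0.11 for Ccr3 and -0.041 to 0.27 for Cx3cr1. None of the reversed values passed the test except those of Cxcl10 with voomWithQualityWeights, in replicates 4 to 6 alone and without Bap1LysM preOC 1. The causes were not tested. With 2 Bap1LysM preOC libraries in replicates 1 to 3, leaving out 1 leaves a lone library assumed to vary like the others. Members under 1 CPM rest on 62.4 counts or fewer per library.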
